A study of Mus musculus with 6 samples.

Results

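The marker genes of disease-associated microglia were followed in BV2 cells, an immortalized mouse microglial line. The set was a fixed list of 10 genes taken by symbol: Spp1, Gpnmb, Apoe, Lpl, Itgax, Cst7, Clec7a, Cd9, Lgals3 and Fabp5. All 10 were found among the 46095 genes of the count table. RNA sequencing compared 3 control libraries (CON, untreated BV2 cells) with 3 libraries of BV2 cells given recombinant sTREM-1 protein, the soluble form of triggering receptor expressed on myeloid cells 1, at 1 ug/mL for 6 h. Both groups were the same line, with no genetic change given in the labels, grown alone in culture wells without neurons or other brain cells. The labels do not say whether the libraries of a group came from separate cultures, so the p-values measure the spread between these libraries, which may be technical.

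Disease-associated microglia are a state of brain macrophages described around amyloid plaques, dying neurons and damaged myelin. Cells in this state take up lipid and debris, and they raise genes for lipid transport, lysosomal proteins and surface receptors while genes of the resting, homeostatic state fall. In vivo the full state depends on the lipid receptor TREM2 and its signalling adaptor TYROBP. Among the genes followed here, Apoe, Lpl and Fabp5 handle lipid. Spp1 and Lgals3 encode secreted proteins, Gpnmb, Itgax, Clec7a and Cd9 encode membrane proteins, and Cst7 encodes a protease inhibitor.

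After sTREM-1, 6 of the 10 genes were higher (Clec7a, Lpl, Apoe, Gpnmb, Lgals3 and Spp1), Cd9 was lower, and Itgax, Cst7 and Fabp5 did not pass the test. The rises ran from 3.85% for Spp1 to 31.2% for Clec7a, and Cd9 fell by 16.1%. The quasi-likelihood test of edgeR was run on the 14120 genes with enough counts, p-values were adjusted over all of them by the Benjamini-Hochberg method, and a gene was called at an adjusted p under 0.05. By that rule 16.5% of all tested genes were higher and 14.1% were lower. Most of the genes followed here are abundant, and small changes of abundant genes are easier to detect. Among the 2417 genes with at least 100 CPM (CPM are counts divided by the library total, scaled between libraries by TMM), 29.0% were higher and 25.7% were lower. The 7 markers at that level divided into 5 higher, 1 lower and 1 not called. In bulk RNA a change in the number of cells that express a gene and a change in RNA per cell cannot be told apart.

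The regulatory sequence just upstream of the markers is shown for 4 genes: the pair with the highest counts (Spp1 and Gpnmb), the one that fell (Cd9) and one of the least abundant (Itgax). RefSeq promoter windows of build GRCm38.p6 matched 8 of the 10 genes, Spp1, Gpnmb, Apoe, Itgax, Cst7, Clec7a, Cd9 and Lgals3, with 12 start sites between them. Only the 250 bases upstream of each start site were searched, on both strands, for 5 motifs: the E-box CACGTG, the M-box core TCATGTG bound by MITF and related factors, the AP-1 site TGACTCA, the PU.1 site GAGGAAGT and the TATA box TATAAA. The sequences run 5′ to 3′ on the strand of the gene, with motif matches in capitals.
Spp1, start site 1, chr5:104434861-104435110, plus strand: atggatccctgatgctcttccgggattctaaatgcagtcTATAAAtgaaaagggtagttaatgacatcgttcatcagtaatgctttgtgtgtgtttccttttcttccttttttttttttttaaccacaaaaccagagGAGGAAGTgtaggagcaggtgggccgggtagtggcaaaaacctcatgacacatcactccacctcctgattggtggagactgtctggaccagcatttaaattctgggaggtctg
Gpnmb, chr6:49036268-49036517, plus strand: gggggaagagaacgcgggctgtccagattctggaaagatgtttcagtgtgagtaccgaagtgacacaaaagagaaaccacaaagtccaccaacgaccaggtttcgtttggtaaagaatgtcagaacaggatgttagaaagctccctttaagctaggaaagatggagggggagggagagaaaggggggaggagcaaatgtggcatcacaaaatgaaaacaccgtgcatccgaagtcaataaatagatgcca
Cd9, chr6:125494761-125495010, minus strand: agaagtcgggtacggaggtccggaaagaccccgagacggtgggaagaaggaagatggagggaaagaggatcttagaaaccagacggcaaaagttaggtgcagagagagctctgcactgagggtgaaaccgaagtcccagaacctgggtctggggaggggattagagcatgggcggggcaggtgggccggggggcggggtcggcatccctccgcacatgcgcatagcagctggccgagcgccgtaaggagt
Itgax, chr7:128129300-128129549, plus strand: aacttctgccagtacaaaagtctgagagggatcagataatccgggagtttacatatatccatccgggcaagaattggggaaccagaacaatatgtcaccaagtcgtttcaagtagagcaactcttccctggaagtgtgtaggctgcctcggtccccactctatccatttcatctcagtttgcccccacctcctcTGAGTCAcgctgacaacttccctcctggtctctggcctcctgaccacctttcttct
Matches were found in 3 of the 12 windows. The first Spp1 window held the PU.1 letters 113 bases and the TATA letters 211 bases before the start site. The Itgax window held the AP-1 letters on the reverse strand (TGAGTCA), 56 bases before the start site. The second Apoe start site had 2 matches to the TATA letters, 96 and 100 bases upstream, that overlap each other on opposite strands. Across all 32851 RefSeq windows of this length, CACGTG was found in 6.02%, TCATGTG in 3.25%, TGACTCA in 4.46%, GAGGAAGT in 2.44% and TATAAA in 12.4%. These matches are shared letters and not measured binding.

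Total counts were 40663981 to 40779439 in the CON libraries and 40070633 to 45877107 in the sTREM-1 libraries. The BV2 identity was checked with 12 macrophage and microglial markers, of which 11 were tested and Aif1 was listed at 0 in all 6 libraries. Csf1r, the receptor for the macrophage growth factor CSF1, stood at 521 CPM ± 3.13 in CON (SD, n = 3). Ptprc, which encodes CD45, stood at 346 CPM ± 5.15. The homeostatic microglial markers Sall1, Siglech and Gpr34 were at 0 counts in every library. Of 16 markers of astrocytes, neurons, oligodendrocytes, endothelium, fibroblasts and lymphocytes, 3 passed the filter, among them Mbp and Pecam1, with edgeR adjusted p-values of 0.647 and 0.873. Of the 16, 8 were at 0 counts in all libraries. The summed level of these markers was 8.55 to 8.79 CPM in CON and 6.80 to 8.06 CPM in sTREM-1.

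The markers differed widely in abundance. Spp1 had the highest count of all genes in every library and Gpnmb the second highest. Together the 10 genes took 4.03% ± 0.0140 of all counts in CON and 4.26% ± 0.0645 in sTREM-1 (SD, n = 3 each). The summed level was 40002 to 40212 CPM in the CON libraries and 42328 to 43756 CPM in the sTREM-1 libraries, with no overlap. Spp1 and Gpnmb alone made up 81.5% to 83.0% of this sum across the libraries, so it mostly reflects these 2 genes. Gpnmb, Spp1 and Lpl gained the most in absolute level, by 1025, 795 and 735 CPM, and Cd9 fell by 72.0 CPM.

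**Figure D1:**
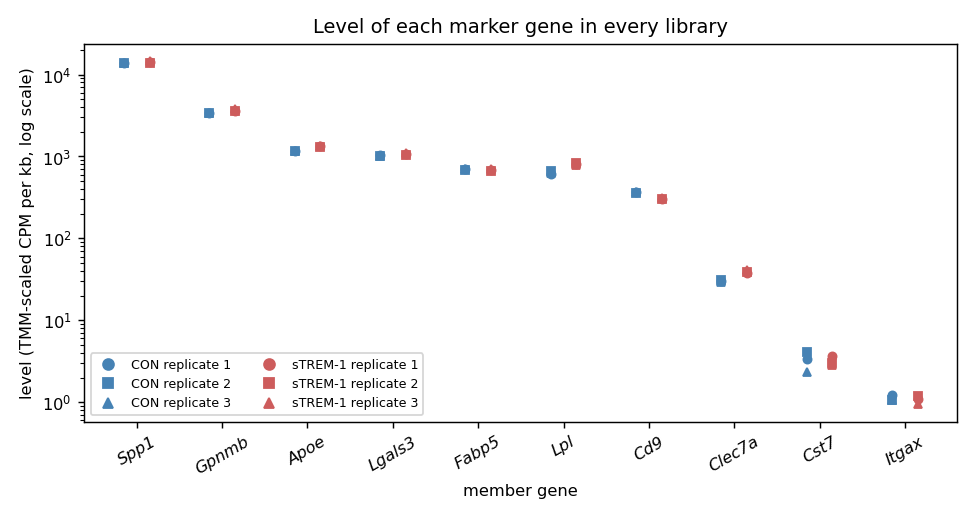
Level of each marker gene in every library, in CPM per kilobase of transcript on a log axis, with CON and sTREM-1 libraries as separate points. Spp1 lies highest, at 13693 CPM per kb in CON, and Itgax lowest, at 1.12 CPM per kb.

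To compare levels between genes, CPM was divided by the length of the longest principal transcript of the GENCODE M21 annotation. In CON the order by mean CPM per kb was Spp1 (13693), Gpnmb (3399), Apoe (1157), Lgals3 (1026), Fabp5 (698), Lpl (634), Cd9 (365), Clec7a (30.1), Cst7 (3.24) and Itgax (1.12). No neighbours in this order overlapped between CON libraries, although the order of Apoe against Lgals3 and of Lpl, Cd9 and Fabp5 depends on the transcript length chosen. With lengths of all exons joined, Lgals3 came to 783 and Apoe to 762 CPM per kb, and Lpl, Cd9 and Fabp5 came to 249, 219 and 193. After sTREM-1, Lpl (792 to 837 CPM per kb) lay above Fabp5 (665 to 703 CPM per kb). Itgax and Cst7 rested on 93 to 206 counts per library, which limits the precision of their values.

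Spp1 encodes osteopontin, a secreted phosphoprotein that binds integrins and CD44. The gene lies at chr5:104435118-104441050 on the plus strand (GENCODE M21, GRCm38). Its level was 20677, 20559 and 20671 CPM in CON replicates 1, 2 and 3. It was 21270, 21063 and 21960 CPM in sTREM-1 replicates 1, 2 and 3. Every sTREM-1 library was above every CON library, and sTREM-1 replicate 3 was the highest. The rise was small, 0.055 ± 0.014 on the log2 scale (SE), with an edgeR adjusted p of 0.00285. Without sTREM-1 replicate 3 the change was 0.035, with an adjusted p of 0.00728 by the same edgeR test. The call was lost with edgeR's exact test, which gave an adjusted p of 0.0615. Spp1 shares 309 exonic bases with Gm42793 on the same strand, a gene model that has no row of its own here, so reads of that stretch cannot be assigned between them.

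Gpnmb encodes a transmembrane glycoprotein found at the cell surface and in lysosomes, and lies at chr6:49036546-49070929 on the plus strand. Its level was 12504, 12698 and 12538 CPM in CON. It was 13396, 13455 and 13962 CPM in sTREM-1. The groups did not overlap, and again sTREM-1 replicate 3 was the highest. The rise was 0.11 ± 0.015 on the log2 scale (SE), or 8.15%, with an edgeR adjusted p of 6.5e-07. The ratio of Gpnmb to Spp1 counts was 0.605 to 0.618 in the CON libraries and 0.630 to 0.639 in the sTREM-1 libraries, with no overlap.

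Lgals3 encodes galectin-3, a lectin that binds galactose-containing glycans, and lies at chr14:47367751-47386160 on the plus strand. Its level was 1485, 1440 and 1441 CPM in CON and 1526, 1490 and 1580 CPM in sTREM-1. The groups did not overlap, but the lowest sTREM-1 library was only 1.003 times the highest CON library. The rise was 0.074 ± 0.021 on the log2 scale (SE), with an edgeR adjusted p of 0.00723. Without CON replicate 3 the adjusted p was 0.0568, and without sTREM-1 replicate 3 it was 0.0518.

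Lpl encodes lipoprotein lipase, which releases fatty acids from triglyceride-rich lipoproteins. It lies at chr8:68880491-68907448 on the plus strand. In CON it was measured at 2540, 2728 and 2563 CPM. After sTREM-1 it was measured at 3334, 3442 and 3259 CPM. All 3 sTREM-1 libraries were at least 1.19 times the highest CON library. Lpl rose by 0.36 ± 0.02 on the log2 scale (SE), or 28.1%, with an edgeR adjusted p of 1.3e-13. Of all tested genes, 15.2% had a larger absolute change.

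Apoe encodes apolipoprotein E, the main apolipoprotein of brain lipid transport, and lies at chr7:19696109-19699188 on the minus strand. The 3 CON libraries were almost equal, at 1629, 1630 and 1630 CPM. With sTREM-1 the values were 1871, 1813 and 1884 CPM. The groups did not overlap. The coefficient of variation of the CON libraries was 0.0429%, below the 0.387% that counting alone would give. Apoe rose by 0.19 ± 0.02 on the log2 scale (SE), or 13.9%, with an edgeR adjusted p of 3.9e-09. The ratio of Lpl to Apoe counts lay between 1.56 and 1.67 in CON and between 1.73 and 1.90 in sTREM-1.

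Fabp5 encodes a fatty acid binding protein that carries lipid inside the cell, and lies at chr3:10012548-10016607 on the plus strand. The level was 686, 681 and 700 CPM in CON, and 667, 657 and 694 CPM in sTREM-1. The groups overlapped through sTREM-1 replicate 3. The change was -0.036 ± 0.023 on the log2 scale (SE) with an edgeR adjusted p of 0.265, and its 95% interval was -0.082 to 0.011. Without sTREM-1 replicate 3 the change was -0.061 and the edgeR adjusted p was 0.0348. Reads of Fabp5 could be shared with near-identical genes, of which Gm6166 was 98.3% identical and Gm14328 97.3% identical over the aligned bases. All listed copies together had 0.442% of the Fabp5 counts.

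**Figure D2:**
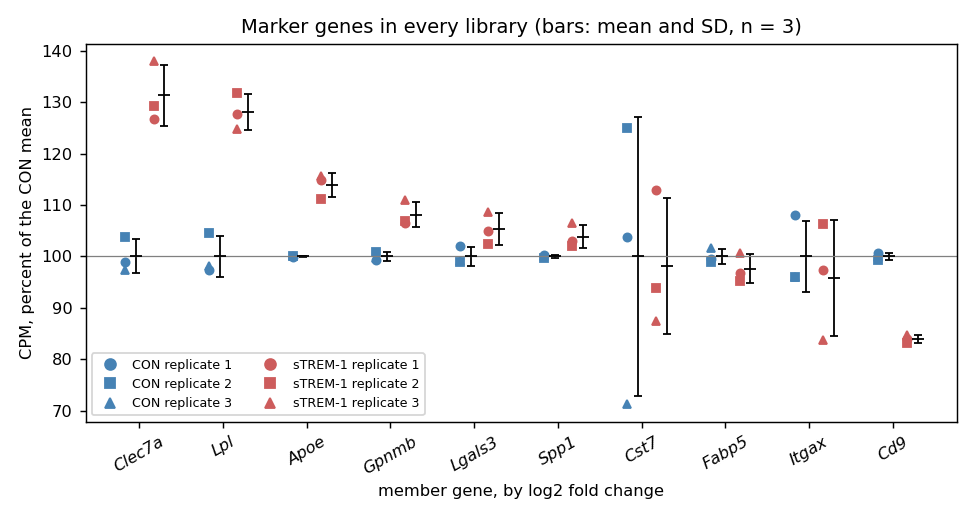
CPM of each marker gene in every library, as percent of that gene's CON mean, with genes ordered by log2 fold change and bars for the group mean and SD (n = 3). All sTREM-1 points lie above CON for 6 genes and below CON for Cd9, while the points overlap for Itgax, Cst7 and Fabp5.

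Clec7a encodes Dectin-1, a C-type lectin receptor that binds beta-glucan and signals through SYK. It lies at chr6:129461591-129472779 on the minus strand, where GENCODE M21 types it as a polymorphic pseudogene. Its level was 21.1, 22.1 and 20.7 CPM in CON and 27.0, 27.5 and 29.4 CPM in sTREM-1. The groups did not overlap. Clec7a rose by 0.39 ± 0.06 on the log2 scale (SE), or 31.2%, with an edgeR adjusted p of 7.6e-06. It rested on 847 to 906 counts per CON library and 1166 to 1233 per sTREM-1 library. Clec7a was the largest relative rise of the 10 genes, and its interval overlapped that of Lpl.

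Cd9 encodes a tetraspanin, a surface protein that organises other membrane proteins, and lies at chr6:125460266-125494791 on the minus strand. Counts came to 451, 445 and 448 CPM in CON and to 376, 372 and 380 CPM in sTREM-1. Every sTREM-1 library was below every CON library. Cd9 changed by -0.25 ± 0.02 on the log2 scale (SE), with an edgeR adjusted p of 3.4e-10. It was the only one of the 10 genes to fall past the threshold when all 6 libraries were used. Gm26728, a processed transcript on the opposite strand, overlaps 218 of the exonic bases of Cd9 and had at most 1 count in any library.

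Itgax encodes the alpha subunit of the integrin CD11c, which pairs with the beta subunit encoded by Itgb2, and lies at chr7:128129547-128150657 on the plus strand. In CON the libraries held 4.91, 4.36 and 4.36 CPM and the sTREM-1 libraries 4.42, 4.83 and 3.81 CPM. The change was -0.061 ± 0.14 on the log2 scale (SE), with an edgeR adjusted p of 0.798 and a 95% interval of -0.35 to 0.22. Cst7 encodes cystatin F, an inhibitor of cathepsins, and lies at chr2:150570415-150578944 on the plus strand. Its CON libraries held 3.32, 4.0 and 2.28 CPM and the sTREM-1 libraries 3.61, 3.00 and 2.80 CPM. The change was -0.026 ± 0.19 on the log2 scale (SE), with an edgeR adjusted p of 0.943 and a 95% interval of -0.41 to 0.36. Itgad, a relative 95% identical to Itgax over 758 aligned bases, had 0 counts. Both Itgax and Cst7 overlapped between groups, and the Clec7a estimate of 0.39 lay above the interval of each. The interval of Clec7a itself, 0.27 to 0.52, overlapped that of Cst7 but not that of Itgax.

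**Figure D3:**
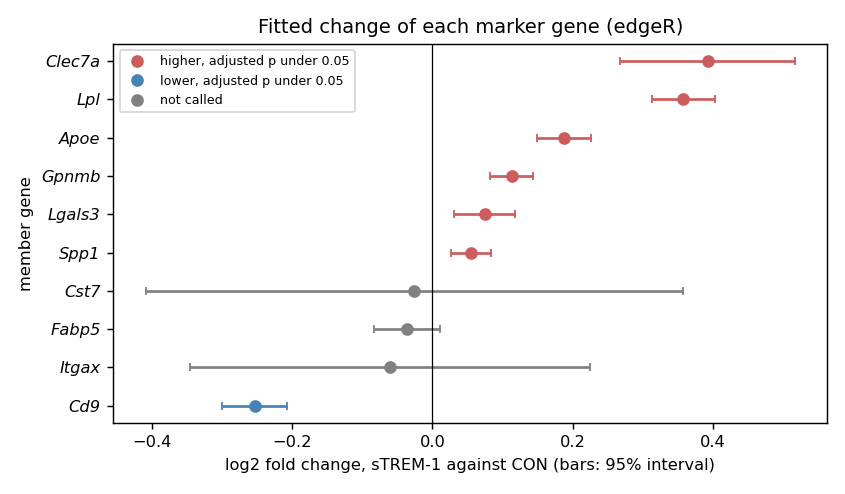
Log2 fold change of each marker gene, sTREM-1 against CON, with 95% intervals. Clec7a (0.39) and Lpl (0.36) lie highest, Cd9 (-0.25) lies lowest, and the intervals of Itgax, Cst7 and Fabp5 cross 0.

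By the stricter rule of an adjusted p under 0.05 and at least a 1.2-fold change, only Lpl and Clec7a remained among the 10 genes and none was lower. Of all tested genes, 5.92% were higher and 4.82% lower by that rule. Without any test, 6 markers had every sTREM-1 library above every CON library and 1 had every one below. The same held for 21.3% and 19.4% of all tested genes. The median log2 fold change was 0.064 over the 10 genes and -0.0017 over all tested genes.

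Of 40 further genes chosen from this program, 35 were tested, 7 were higher, 12 were lower and 16 were not called, and the median log2 fold change was -0.020. Over all tested genes, 16.5% were higher and 14.1% lower, and among those with at least 100 CPM 29.0% and 25.7%. These shares also apply to the lists below. The 5 not tested were H2-D1, Serpine2, Ch25h, Dkk2 and Hpse. The rises included Lipa and Npc2, which act in lysosomal lipid breakdown and cholesterol export, and the growth factor gene Igf1. Lipa rose from 215 CPM ± 3.88 to 268 CPM ± 3.55 (SD, n = 3), a change of 24.7%. Cd52 rose by 24.9% and Igf1 by 24.5%. Plin2, which coats lipid droplets, fell from 1334 CPM ± 26.5 to 1060 CPM ± 27.5, a change of -20.5%. The chemokine gene Ccl3 fell by 18.9%, Cd83 fell by 22.2% and the inhibitory receptor gene Lilrb4a fell by 13.5%. Other lysosomal genes of this list, named after their values were seen, moved both ways. Ctsa was called higher (log2 change 0.096). Ctsd (-0.15), Cd63 (-0.11), Gusb (-0.074) and Ctsb (-0.052) were called lower, and the Ctsb libraries overlapped between groups. Among those not called were Ctsl, Ctsz and Hexa. Trem2 itself rose by 9.91% (log2 change 0.14, edgeR adjusted p 9.8e-04). Its adaptor Tyrobp was at 300 CPM ± 1.07 in CON and 293 CPM ± 5.03 in sTREM-1, with a log2 change of -0.038 and an edgeR adjusted p of 0.261.

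Genes of the homeostatic state, which fall in disease-associated microglia in vivo, were tested for 15 of 20 list members. Of these, 6 were higher, 1 was lower and 8 were not called, and the median log2 fold change was 0.16. The shares of all tested genes were 16.5% higher and 14.1% lower. Csf1r rose most in absolute level, from 521 CPM ± 3.13 to 753 CPM ± 20.5 (SD, n = 3; edgeR adjusted p 2.9e-17), a rise of 44.6%. Mef2c, a transcription factor of microglia, rose by 32.3%, Selplg by 22.8% and Cst3, which encodes cystatin C, by 7.63%. Cx3cr1 and P2ry13, named after their values were seen, were also higher, at under 100 counts per library, and the P2ry13 libraries overlapped between groups. The call of Cx3cr1 was lost without CON replicate 1 and without sTREM-1 replicate 2 or 3. The call of P2ry13 was lost without CON replicate 2 or 3 and without sTREM-1 replicate 1 or 2. Other low-count markers of this list, also named after their values were seen, were not called. Their log2 changes were -0.64 for Olfml3, -0.020 for Tmem119, 0.16 for Fcrls and 0.75 for P2ry12. The edgeR adjusted p-values were 0.0658, 0.970, 0.828 and 0.0955. The 1 lower gene was Mef2a, which fell by 4.77% (edgeR adjusted p 0.0487). Its call was lost in 7 of 14 alternatives, among them leaving out any 1 of the 6 libraries. Without CON replicate 2, or without sTREM-1 replicate 2, 1 other homeostatic gene was called lower.

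Of 24 regulators of this state, all were tested, 11 were higher, 3 were lower and 10 were not called, and the median log2 fold change was 0.12. Among all tested genes, 16.5% were higher and 14.1% lower, and at 100 CPM or more 29.0% and 25.7%. Srebf1, a master factor of fatty acid synthesis, rose by 38.2% (63.0 CPM ± 3.26 to 87.1 CPM ± 1.04). The kinase gene Syk rose by 15.3%, Jun by 13.3% and Bhlhe40 by 12.1%. Cebpb, a transcription factor of inflammatory macrophages, fell by 16.1%. Rxra fell by 6.49%, but its call was lost without CON replicate 2 or 3 and without any 1 of the sTREM-1 replicates. Without CON replicate 3, or without sTREM-1 replicate 3, 1 regulator was lower. Trem2 and Tyrobp, already given, belong to this list as well.

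Of 31 partners that bind or process the marker proteins, 26 were tested, 12 were higher, 3 were lower and 11 were not called, and the median log2 fold change was 0.14. For comparison, 16.5% of all tested genes were higher and 14.1% lower, and at 100 CPM or more 29.0% and 25.7%. Sorl1, a sorting receptor that binds apolipoprotein E, rose by 31.2%, from 51.3 CPM ± 1.11 to 67.3 CPM ± 0.127 (SD, n = 3). Lgals3bp, whose protein binds galectins, rose by 37.7%, and Ctsc, a cathepsin that cystatin F inhibits, by 23.6%. Itgb2, the partner of Itgax, rose by 9.18% (edgeR adjusted p 0.0073), but the adjusted p was 0.0853 without sTREM-1 replicate 3. Cd44, a receptor for osteopontin, fell by 9.60%, and Sel1l, which acts in export of lipoprotein lipase from the endoplasmic reticulum, fell by 9.88%. Malt1, a signalling protein downstream of Clec7a, fell by 6.81%, a call that was lost in 5 of 14 alternatives. Without CON replicate 1 or 3, or without sTREM-1 replicate 1 or 2, Malt1 did not pass.

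**Figure D4:**
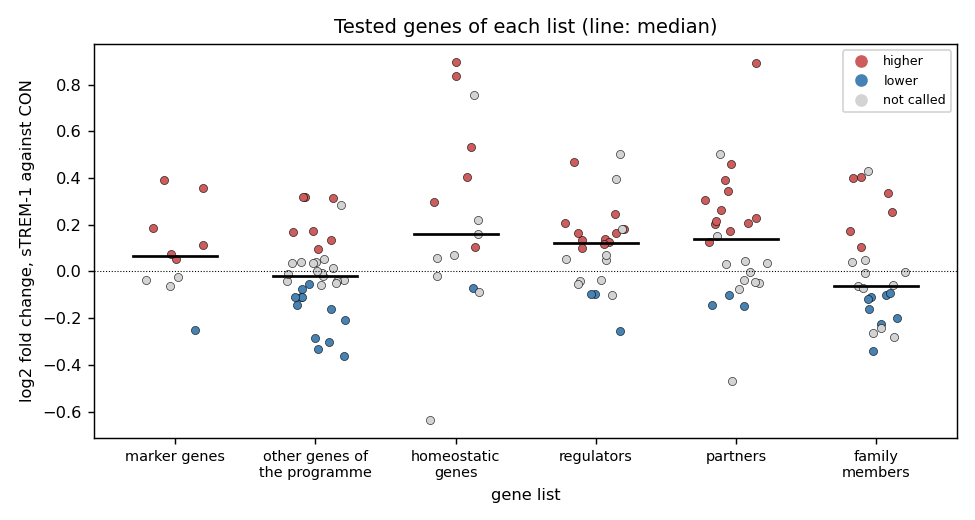
Log2 fold change, sTREM-1 against CON, of the tested genes of 6 lists, with 1 point per gene, colour for the call and a line at each median. The medians run from -0.061 for other members of the markers' gene families to 0.16 for the homeostatic genes, and the 10 markers have a median of 0.064.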

How the data were processed

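RNA was extracted from BV2 cells and sequenced, and the deposited data hold 6 libraries, 3 CON and 3 sTREM-1. The study's methods give a higher n for these cells than the 3 libraries per group found here. The reason for the difference is not given. The deposited table holds whole-number counts per gene and library, made by the authors. The submitters' processing notes name HISAT2 2.0.4 and the human builds hg19 and GRCh38, although the cells and the gene symbols are mouse, so the build behind the counts is uncertain. Here gene positions and lengths came from GENCODE M21 (GRCm38), matched by symbol, and upstream sequences from RefSeq (GRCm38.p6).

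Counts were analysed with edgeR 4.0.16 in R 4.3.3. Genes were kept by filterByExpr with a minimum count of 10, libraries were scaled by TMM, and the quasi-likelihood test was fitted with group alone and Benjamini-Hochberg adjustment. Values in the text are TMM-scaled CPM. Errors of log2 fold changes are SE, and intervals cover 95%. The share of genes called among those with at least 100 CPM was taken after the values were seen. Genes at least 90% identical over at least 200 bases were sought with blastn 2.17.0. The chi-square statistic per gene between libraries was 3.46 to 5.04 within groups and 20.6 to 22.6 between groups, so no library was a copy of another.

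The 10 genes and the lists were chosen with earlier results of these data known. Named genes were all 10 members, up to 4 per direction from each other list with the smallest adjusted p and groups that do not overlap, the genes Trem2, Tyrobp and Itgb2, and near-identical copies; genes named outside this rule are marked as such, apart from marker checks. Alternatives were a replicate block, RLE scaling, other filters, stricter thresholds, each library left out in turn, the exact test of edgeR and DESeq2 1.42.0. Leaving the members out of the scaling and using library totals alone were added after seeing the data. Some genes that the rule names are not reported here.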

Additional observations from a re-analysis of the deposited data

How the results depend on the processing

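Of 140 log2 fold changes of the markers recomputed under alternatives, 131 kept their direction and their side of the threshold and 9 did not. Of the genes named from the lists, Mef2a, Rxra, Malt1, Itgb2, Cx3cr1, P2ry13 and Laptm5 lost their call in 1 or more alternatives. The calls of Ctsa, Ctsd, Cd63, Gusb and Ctsb were not followed gene by gene through the alternatives. With at least a 1.2-fold change, 836 genes were higher and 681 lower in all, and at an adjusted p under 0.01, 1317 were lower. At 1.2-fold, 2 markers were higher and 0 lower. The other disease-associated genes gave 3 higher and 4 lower, regulators 1 and 0, and partners 6 and 0. Paralogs gave 3 higher and 1 lower, macrophage markers 2 and 0, and homeostatic genes 5 and 0. Homeostatic genes also gave 0 lower with no filter on low counts and at an adjusted p under 0.01, where regulators gave 1 lower. Spp1 was not called by edgeR's exact test (log2 change 0.0545, adjusted p 0.0615). Leaving out 1 library at a time gave 5 to 6 markers higher and 1 to 2 lower, 0 to 1 homeostatic genes lower, 1 to 3 regulators lower and 0 to 1 markers of other cell types lower. The log2 changes then ran from 0.0351 to 0.0651 for Spp1, -0.143 to 0.0239 for Itgax, -0.221 to 0.165 for Cst7, 0.0501 to 0.0922 for Lgals3 and -0.0606 to -0.0205 for Fabp5, and the members' median from 0.0487 to 0.0913. The cause was not tested. With the replicate block, 6 markers were higher and 1 lower, with a median of 0.064; samples of the same number did not deviate together (correlations -0.018, -0.033 and -0.014). Counts of 93 to 206 per library limit Itgax and Cst7.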

Other observations

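The paralogs of the markers, genes of the same families, moved both ways. Of 30 listed, 25 were tested, 6 were higher, 8 were lower and 11 were not called, and the median log2 fold change was -0.061. By the same rule 16.5% of all tested genes were higher and 14.1% lower. Lgals9, which encodes galectin-9, rose by 32.4%, from 80.9 CPM ± 0.573 to 107 CPM ± 2.40 (SD, n = 3). The C-type lectin genes Clec12a and Clec4a1 rose by 32.0% and 19.4%. Among tetraspanins, the family of Cd9, Cd53 fell by 21.1% and Cd37 fell by 14.6%, while Cd81 rose by 12.6%. Fabp4, the adipocyte relative of Fabp5, fell by 10.5%, and the cystatin gene Cstb fell by 12.8%.

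Macrophage markers in the 11 tested were 4 higher and 2 lower, beside 16.5% higher and 14.1% lower of all tested genes. Adgre1 rose by 9.43% and Ptprc by 7.17%, and Fcer1g fell by 9.52% and Cd14 fell by 7.95%. Laptm5, named after its values were seen, was called higher through 1 library: its counts were 175, 178 and 189 in CON and 195, 195 and 2940 in sTREM-1 replicates 1, 2 and 3. Without sTREM-1 replicate 3 it was not called (edgeR adjusted p 0.999).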
